A study of Homo sapiens with 2 samples.

Results

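The genes that make, break down and read cyclic AMP and cyclic GMP were taken from RNA sequencing of CWR22rv1, a human prostate cancer cell line. Members were chosen by a rule on symbols, set with earlier results of these data known. It took the numbered phosphodiesterases (PDE), the adenylyl cyclases (ADCY), the guanylyl cyclases (GUCY1 and GUCY2) and the subunits of protein kinase A (PRKA). It also took the cGMP-dependent kinases (PRKG), the EPAC exchange factors RAPGEF3 and RAPGEF4, and CREB1. The CREB3 family came in by symbol and is not counted here as a reader of cyclic nucleotides. The rule found 57 of the 19607 genes measured. There was 1 library of control cells, labelled wild type, and 1 library of Akt1/2 DKO cells, in which Akt1 and Akt2 had been targeted together by CRISPR/Cas9 guides on px330 plasmids, with puromycin selection and isolation of monoclonal cells. The labels name no other treatment, and they do not say whether the control cells had passed through cloning. The title of the knockout library ends in a number that 1 of the study's knockout clones also carries, but the title of the control library is numbered in the same way, and neither states a clone. With 1 library per group no difference has a replicate check, and a clonal difference, a culture difference and an effect of Akt loss cannot be told apart.

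Cyclic AMP is made from ATP by adenylyl cyclases under the control of G protein-coupled receptors, and cyclic GMP from GTP by a nitric oxide-sensitive soluble enzyme or by membrane receptors. Phosphodiesterases hydrolyse both messengers and differ by family in which one they accept. The signal is read by protein kinase A, a tetramer of catalytic and regulatory subunits, by protein kinase G and by EPAC. The transcription factor CREB1 is a classical target of protein kinase A. Akt meets this pathway through PDE3B, a known Akt substrate in insulin signalling.

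Rounded to whole numbers, the estimated reads came to 9970820 for control and 10718650 for Akt1/2 DKO. The 57 genes took 0.181% and 0.165% of them. Folds set Akt1/2 DKO over control after TMM scaling, which puts the ratio of library sizes at 1.11. Each 95% interval is exact (Clopper-Pearson) given the reads of both libraries and covers counting error only. Where 1 library was at 0, it was set to a floor of 3 reads. The fold then rests on that choice, and the limit of its interval nearest to no change is the bound. FPKM, the level per transcript length as deposited, was used wherever different genes are compared by level. The targeted genes went with the labels, since AKT1 had 2645 reads in control and 591 in Akt1/2 DKO, and AKT2 had 2362 and 667. Of the prostate markers, FOXA1 had 2511 and 3289 reads, while HOXB13, KLK2, KLK3, TMPRSS2 and STEAP2 were at least 1.5-fold lower in Akt1/2 DKO. Markers of fibroblasts (6 genes) summed to 140 and 156 reads, with COL3A1 at 74 and 9, COL1A1 at 55 and 106 and LUM at 5 and 35, while markers of leukocytes (5 genes) summed to 6 and 11 and of endothelium (4 genes) to 2 and 2. The part of the fibroblast markers in the results was not tested. The leukocyte markers CD3E and LYZ and the endothelial marker CDH5 were at 0 in both libraries.

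A gene was counted as measurable when its reads summed over both libraries reached 10, and 40 of the 57 were. A fold of 1.5 or more was seen for 24 of the 40, of which 19 were higher in Akt1/2 DKO and 5 lower. Over all 13318 measurable genes the share was 30.9%, made up of 15.9% higher and 15% lower. The interval also left out no change for 20 of the 40 members, 15 of them higher and 5 lower, against 27% of all measurable genes (13.9% higher, 13.2% lower). A fold of 2 or more was seen for 15 members, 13 higher and 2 lower, against 18% of all (10% higher, 7.94% lower). Members with few reads weigh on these counts, because a gene silent in control enters the filter only through its reads in Akt1/2 DKO. Of the 25 members whose reads summed to 100 or more, 12 passed 1.5-fold, 8 higher and 4 lower, where 23.2% of all genes of that depth did (11.3% higher, 11.9% lower). Of the same 25, 7 passed 2-fold, 5 higher and 2 lower, against 11.1% (6.01% higher, 5.05% lower). The median log2 fold change of the 40 members was 0.46, beside 0.0063 over all measurable genes, but it was 0.044 when 50 reads or more were asked for. The plot of reads by library shows the members in order of their role.

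**Figure D1:**
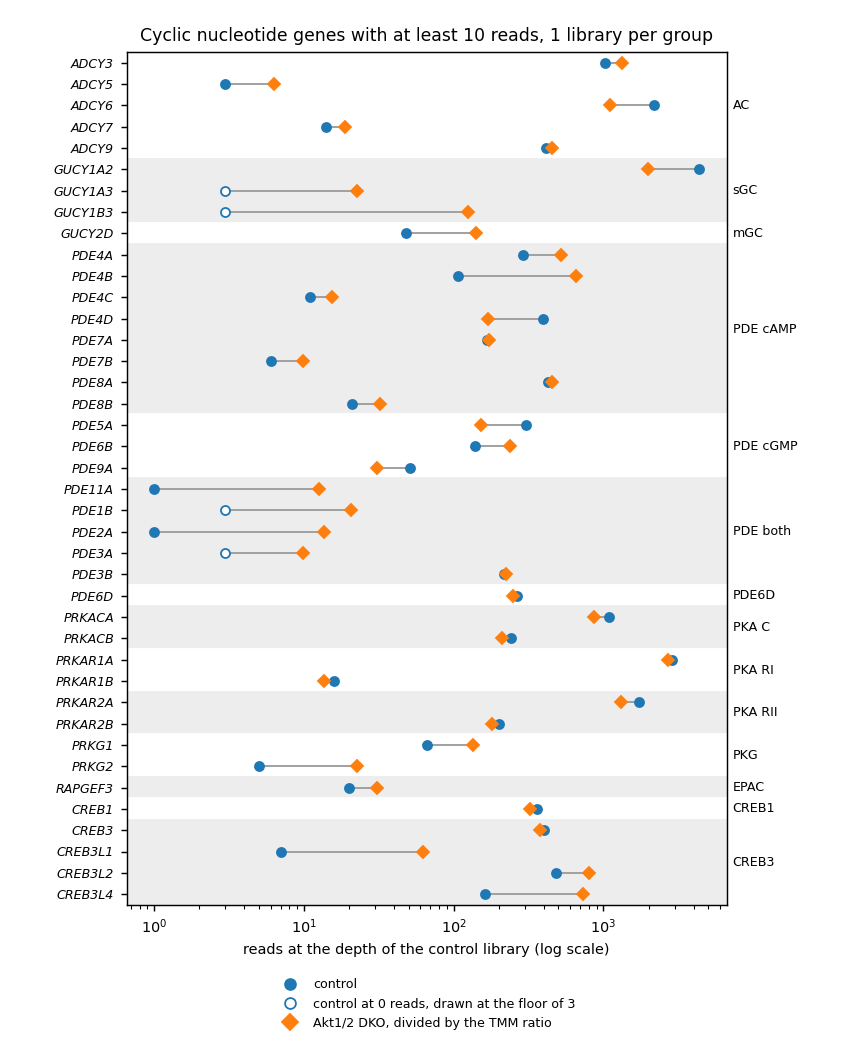
Reads of each of the 40 measurable members, on a log scale at the depth of the control library, grouped by role (AC, adenylyl cyclase; sGC and mGC, soluble and membrane guanylyl cyclase; PKA C, RI and RII, catalytic and regulatory subunits). Blue circles are the control library, orange diamonds the Akt1/2 DKO library divided by the TMM ratio, and open circles members at 0 in control, drawn at the floor of 3 reads; the subunits of protein kinase A lie close together in the libraries, while GUCY1B3, PDE4B and CREB3L4 lie far apart.

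Of the soluble guanylyl cyclase genes, 2 were higher in Akt1/2 DKO and 1 was lower. The enzyme is a heterodimer of an alpha and a beta subunit, and the beta subunit carries the heme that binds nitric oxide. GUCY1B3 (ENSG00000061918), which encodes the beta 1 subunit, had 0 reads in control and 139 in Akt1/2 DKO. It was 41.8-fold higher at the floor, with 33.5 as the lower limit of its interval. GUCY1A3 (ENSG00000164116), the alpha 1 subunit, had 0 and 25 reads, 7.52-fold higher at the floor with a lower limit of 5.67. In control cells no read of either gene was found, so the control level is not known, and the lower limits are the bounds that the reads give.

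GUCY1A2 (ENSG00000152402), the alpha 2 subunit, went the other way. It had 4371 reads in control and 2213 in Akt1/2 DKO, 2.19-fold lower (95% interval 2.08 to 2.31). In level per length it was 67.0 FPKM in control and 24.0 FPKM in Akt1/2 DKO, where 19.9% of all genes stood above it. Control cells thus held a strong alpha 2 transcript without a read of the beta 1 subunit, and Akt1/2 DKO cells held alpha 2 at 24.0, beta 1 at 4.53 and alpha 1 at 0.88 FPKM. With the deposited FPKM in place of reads, the log2 fold change of GUCY1A2 was -1.48 rather than -1.13.

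GUCY1A3 and GUCY1B3 are neighbours on chromosome 4, both on the plus strand, at chr4:155666711-155732349 and chr4:155758992-155807591 in GENCODE release 29 (GRCh38). Their promoters are shown because these neighbours both went from no read to detected reads. They are the 300 bases from RefSeq (GRCh38.p14) at chr4:155667412-155667711 and chr4:155758771-155759070, which run from 250 bases before to 50 bases after 1 annotated start per gene, with each CpG dinucleotide in capitals.
GUCY1A3: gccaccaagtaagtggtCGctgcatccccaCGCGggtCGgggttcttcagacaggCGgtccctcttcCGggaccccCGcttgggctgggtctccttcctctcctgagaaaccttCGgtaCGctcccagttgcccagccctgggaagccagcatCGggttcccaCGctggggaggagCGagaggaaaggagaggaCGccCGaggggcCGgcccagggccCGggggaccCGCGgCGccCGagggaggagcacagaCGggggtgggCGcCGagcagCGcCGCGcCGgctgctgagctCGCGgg
GUCY1B3: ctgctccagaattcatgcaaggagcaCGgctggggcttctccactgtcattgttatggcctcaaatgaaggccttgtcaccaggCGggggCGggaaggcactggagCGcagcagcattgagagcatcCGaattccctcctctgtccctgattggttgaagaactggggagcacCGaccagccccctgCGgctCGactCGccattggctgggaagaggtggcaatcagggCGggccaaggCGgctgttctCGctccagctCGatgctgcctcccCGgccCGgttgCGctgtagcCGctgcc
The GUCY1A3 window holds 29 CpG dinucleotides and the GUCY1B3 window 17, where the median of all 35116 promoters in the table is 14. Over the 48 members with a promoter in the table the median is 9. PDE1B and PDE3A, also without a read in control, have windows with 3 and 0 CpG dinucleotides, not shown. Neither window holds the cAMP response element TGACGTCA, nor its core TGACG on either strand.

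The genes around the pair were higher in Akt1/2 DKO as well. Within 2 Mb of the start of GUCY1B3 on either side, all 8 other measurable genes were at least 1.5-fold higher, and within 3 Mb 14 of 19 were, with 0 lower. Over all measurable genes 15.9% were higher. DCHS2, LRAT, PDGFC, GLRB, GRIA2 and CTSO had 0 to 8 reads in control, so they reached the filter only or mainly through Akt1/2 DKO. MAP9 and PLRG1 were well covered in control, PLRG1 with 521 and 909 reads, 1.57-fold higher. GRIA2, a glutamate receptor subunit, had 1 read in control and 89 in Akt1/2 DKO, 80.3-fold (95% interval 14.0 to 3206). GLRB, the beta subunit of the glycine receptor, had 1 and 66 reads. LRAT, which esterifies retinol, had 0 and 28, and MAP9, a microtubule-associated protein, had 81 and 319 reads, 3.55-fold higher (2.78 to 4.59). From MND1 to C4orf46, 15 neighbouring measurable genes were higher in an unbroken row over 5.33 Mb (chr4:153344649-158672255). The pair and the genes named above with 0 to 8 control reads are among them. The row was the longest of higher genes along the genome, where the next in either direction held 10 lower genes on chromosome 6. The median log2 fold change of chromosome 4 as a whole was 0.06. This region was looked at after the values of the pair had been seen, and its part in the result for the pair was not tested.

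**Figure D2:**
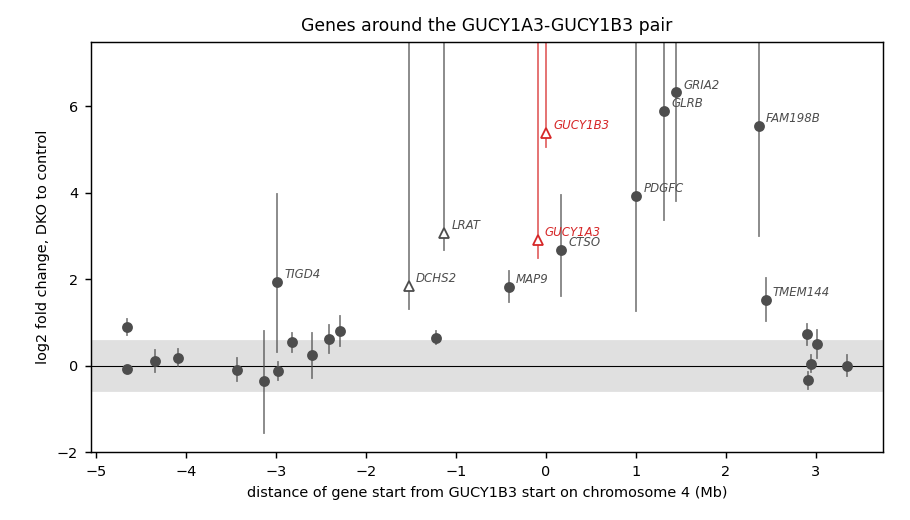
Log2 fold change (Akt1/2 DKO to control) of measurable genes against the distance of their start from that of GUCY1B3 in megabases, with exact 95% counting intervals cut at the upper edge. Open triangles are folds at the floor of 3 reads for genes at 0 in control, red marks the soluble guanylyl cyclase pair and the grey band is within 1.5-fold. The genes within 2 Mb of GUCY1B3 lie above the band, and those beyond 3 Mb are mostly inside it.

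Of the membrane guanylyl cyclases, which are receptors with a cyclase domain, GUCY2D had 48 reads in control and 157 in Akt1/2 DKO, 2.95-fold higher (95% interval 2.12 to 4.17). GUCY2D is best known from photoreceptors. An annotated transcript on the opposite strand covers 26.0% of its exon bases, and the sources used here do not state whether the libraries keep strand. GUCY2C, the gut guanylin receptor, had 0 and 5 reads, and GUCY2F had 0 in both. The membrane guanylyl cyclases NPR1 and NPR2 lie outside the symbol rule, were named after their values were seen, and went opposite ways. NPR1 had 17 and 52 reads, 2.76-fold higher (1.57 to 5.09), and NPR2 18 and 6, 3.33-fold lower (1.26 to 10.2).

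Adenylyl cyclase transcripts differed more in make-up than in sum. ADCY6 (ENSG00000174233, chr12:48766194-48789037), a calcium-inhibited cyclase, had 2162 reads in control and 1218 in Akt1/2 DKO, 1.97-fold lower (95% interval 1.83 to 2.11). ADCY3 (ENSG00000138031), the cyclase of olfactory cilia, had 1021 and 1482 reads, 1.31-fold higher (1.21 to 1.42), within the 1.5-fold threshold. ADCY9 had 415 and 504 reads, and its interval, 0.96 to 1.25, includes no change. These levels put ADCY6 first in control, at 37.1 FPKM against 26.4 for ADCY3, and ADCY3 first in Akt1/2 DKO, at 38.8 against 20.4.

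In shares of the summed adenylyl cyclase FPKM, ADCY6 went from 51.9% to 30.1% and ADCY3 from 37.0% to 57.2%. The summed reads of the 10 cyclases were 3617 and 3242, 1.24-fold lower (95% interval 1.18 to 1.30). The estimated reads of ADCY3 and ADCY7 are not whole numbers, and 21.7% and 34.7% of their exon bases lie under exons of other genes. ADCY7, known from blood cells, had 14 and 21 reads and ADCY5, known from heart and striatum, 3 and 7, ADCY5 passing 1.5-fold as a ratio but both with intervals that include no change. ADCY1 and ADCY10, the soluble cyclase, had 1 and 0 reads in control and 6 and 4 in Akt1/2 DKO. ADCY4 had 1 and 0, and ADCY2 and ADCY8 had none in either library.

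The PDE4 family, which hydrolyses only cyclic AMP and is the target of rolipram, was reordered between the libraries. PDE4B (ENSG00000184588, chr1:65792514-66374579) had 107 reads in control and 722 in Akt1/2 DKO, 6.09-fold higher (95% interval 4.96 to 7.53). PDE4D (ENSG00000113448, chr5:58969038-60522120), its paralog, had 397 and 188 reads, 2.34-fold lower (1.96 to 2.80). PDE4A had 289 and 579 reads, 1.81-fold higher (1.57 to 2.09), and PDE4C, of whose exon bases 85.8% lie under exons of other annotated genes, had 11 and 17.

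PDE4D was thus the leading PDE4 transcript in control and PDE4B in Akt1/2 DKO. Of the summed PDE4 FPKM, which was 20.6 in control and 35.2 in Akt1/2 DKO, PDE4D made up 47.1% and then 13.6%, and PDE4B 15.2% and then 48.3%. PDE4A held 35.1% and 36.4%. The nearest measurable genes beside PDE4B, LEPR and WDR78, were within 1.5-fold. Beside PDE4D, RAB3C had 8 and 152 reads while DEPDC1B was within 1.5-fold.

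The well-covered members of PDE7 and PDE8 differed little. PDE8A, a high-affinity enzyme, had 424 and 499 reads, with a fold of 1.06 (0.93 to 1.21). PDE7A had 168 and 192 reads, with a fold of 1.03 (0.83 to 1.28). PDE8B, with 43.4% of its exon bases shared with another gene, had 21 and 36 reads and PDE7B 6 and 11, and although both ratios passed 1.5-fold, their intervals include no change. Summed over PDE4, PDE7 and PDE8, reads went from 1423 to 2244, 1.42-fold higher (95% interval 1.33 to 1.52).

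**Figure D3:**
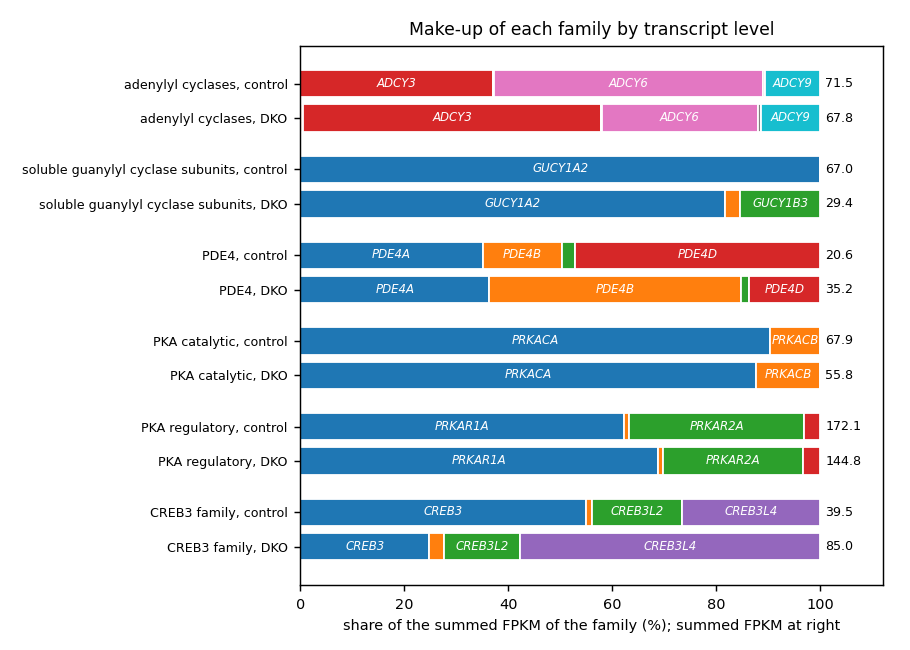
Share of each gene in the summed FPKM of its family, in percent, with 1 bar per library and the summed FPKM at the right of each bar. The largest PDE4 share passes from PDE4D (47.1%) in control to PDE4B (48.3%) in Akt1/2 DKO, the largest adenylyl cyclase share from ADCY6 to ADCY3 and the largest CREB3 family share from CREB3 to CREB3L4, while PRKACA and PRKAR1A keep the largest share of their families.

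Among phosphodiesterases that act on cyclic GMP, PDE5A, the target of sildenafil, was lower. It had 303 reads in control and 169 in Akt1/2 DKO, 1.99-fold lower (95% interval 1.64 to 2.41), and with the deposited FPKM its log2 fold change was -0.66 rather than -0.99. PDE9A, which has a high affinity for cyclic GMP, had 51 and 34 reads, 1.66-fold lower (1.06 to 2.65). PDE6B, a catalytic subunit of the photoreceptor enzyme, had 139 and 264 reads, 1.71-fold higher (1.39 to 2.12). The remaining photoreceptor subunits were scarce, since PDE6A had 6 and 2 reads, PDE6C 0 and 2, PDE6G 0 and 1 and PDE6H none. The direction of the family sum depended on the unit, since summed reads were 499 and 472 and summed FPKM 18.2 and 21.7. PDE6D, which binds prenylated proteins and is widely expressed, had 265 and 275 reads, with a fold of 0.94 (0.79 to 1.11).

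The phosphodiesterases that accept both nucleotides had few reads in control apart from PDE3B. PDE3B, inhibited by cyclic GMP and the Akt substrate named above, had 218 and 248 reads, with a fold of 1.03 (0.85 to 1.24). Its paralog PDE3A had 0 and 11 reads, 3.31-fold higher at the floor with a lower limit of 2.26. PDE1B, a calmodulin-activated enzyme, had 0 and 23, 6.92-fold higher at the floor with a lower limit of 5.18. PDE2A, which cyclic GMP stimulates, had 1 and 15 reads, 13.5-fold (2.08 to 570), and PDE11A had 1 and 14, 12.6-fold (1.92 to 534). With the deposited FPKM the log2 fold change of PDE11A was 2.06 rather than 3.66, and that of PDE2A 4.70 rather than 3.76.

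Each of these 4 genes stayed under 1 FPKM in Akt1/2 DKO, at 0.13 for PDE3A, 0.70 for PDE1B, 0.78 for PDE2A and 0.25 for PDE11A. In all, 4 of the 40 members had reads in Akt1/2 DKO and none in control (GUCY1A3, GUCY1B3, PDE1B and PDE3A), and 0 had reads in control and none in Akt1/2 DKO. Over all measurable genes the shares were 0.924% and 0.533%. A gene at 0 in control is measurable only through its reads in Akt1/2 DKO. GUCY1A3 and GUCY1B3 also lie side by side in the row of higher genes on chromosome 4. PDE1A had 1 and 2 reads, and PDE1C and PDE10A had none.

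The subunits of protein kinase A were all within 1.5-fold, 6 of 6 measurable. Over all measurable genes 30.9% passed 1.5-fold, and 23.2% of those with 100 reads or more did. Most genes were thus within it, and a count of 6 is not read as a trait of the family. PRKACA, the main catalytic subunit, had 1085 reads in control and 962 in Akt1/2 DKO, 1.25-fold lower (95% interval 1.15 to 1.37). PRKACB, its paralog, had 243 and 233 reads, with a fold of 0.86 (0.72 to 1.04). PRKACG, an intronless testis gene, had none.

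PRKAR1A, the type I regulatory subunit mutated in Carney complex, was the most abundant member in either library, at 107.2 FPKM in control and 99.5 in Akt1/2 DKO. It had 2872 and 2967 reads, 1.07-fold lower (1.02 to 1.13). PRKAR2A, a type II subunit anchored by AKAPs, had 1728 and 1449 reads, 1.32-fold lower (1.23 to 1.42). It lies on chromosome 3, whose median log2 fold change was -0.54, and its own was -0.40. PRKAR2B had 200 reads in both libraries, with a fold of 0.90 (0.74 to 1.10). PRKAR1B had 16 and 15, with a fold of 0.85 and an interval, 0.39 to 1.83, that reaches past 1.5-fold either way.

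The cGMP-dependent kinases and EPAC were rare. PRKG1, the kinase of smooth muscle and platelets, had 66 reads in control and 150 in Akt1/2 DKO, 2.05-fold higher (95% interval 1.52 to 2.78). PRKG2, a membrane-bound kinase known from intestine and growth plate, had 5 and 25 reads, 4.51-fold higher (1.70 to 15.1). Together they reached 1.76 and 4.52 FPKM, where the catalytic subunits of protein kinase A had 67.9 and 55.8. RAPGEF3 (EPAC1) had 20 and 34 reads and RAPGEF4 (EPAC2) 6 and 3. RAPGEF3 passed 1.5-fold as a ratio, but the intervals of both include no change.

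**Figure D4:**
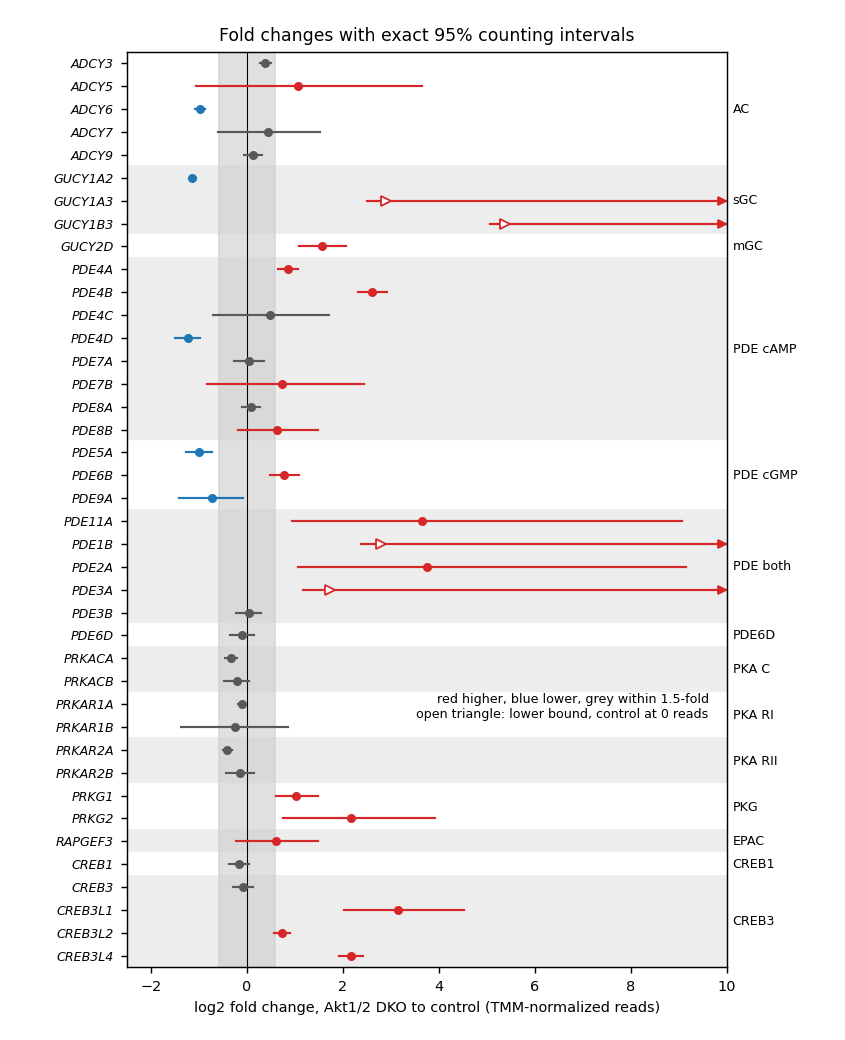
Log2 fold change (Akt1/2 DKO to control) of the 40 measurable members with exact 95% counting intervals, in the order of the plot of reads. Red is at least 1.5-fold higher, blue at least 1.5-fold lower and grey within 1.5-fold (grey band), and open triangles are lower bounds for genes at 0 in control; the 6 subunits of protein kinase A and CREB1 lie near 0, and the 5 lower genes are ADCY6, GUCY1A2, PDE4D, PDE5A and PDE9A.

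CREB1, the factor that protein kinase A phosphorylates, had 359 and 356 reads, with a fold of 0.89 (95% interval 0.77 to 1.04). The CREB3 family, bZIP factors held in the endoplasmic reticulum membrane and released by cleavage in the Golgi, did not stay together. CREB3L4 (ENSG00000143578, chr1:153967534-153974363), also named AIbZIP and known as an androgen-induced gene of prostate, had 162 reads in control and 809 in Akt1/2 DKO, 4.5-fold higher (3.80 to 5.37). CREB3L1 (OASIS), known from bone and secretory cells, had 7 and 69 reads, 8.89-fold higher (4.09 to 22.9), and with the deposited FPKM its log2 fold change was 2.19 rather than 3.15.

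CREB3L2 had 484 and 891 reads, 1.66-fold higher (1.48 to 1.86). CREB3 itself (Luman) had 398 and 417 reads, with a fold of 0.95 (0.82 to 1.09), and CREB3L3, a liver and gut gene, had 0 and 1. Of the summed CREB3 family FPKM, which was 39.5 and 85.0, CREB3 held 54.9% in control and 24.8% in Akt1/2 DKO, and CREB3L4 held 26.7% and 57.8%. The genes that flank CREB3L4 and overlap 9.89% of its exon bases on the opposite strand were SLC39A1, with 1963 and 2877 reads, and JTB, with 1352 and 2368. JTB was 1.58-fold higher and SLC39A1 within 1.5-fold.

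The promoter of CREB3L4 is shown because it had the largest fold after GUCY1B3 and PDE4B among members with reads summing to 100 or more. It lies at chr1:153968000-153968299 on the plus strand (RefSeq, GRCh38.p14), with each CpG dinucleotide in capitals.
CREB3L4: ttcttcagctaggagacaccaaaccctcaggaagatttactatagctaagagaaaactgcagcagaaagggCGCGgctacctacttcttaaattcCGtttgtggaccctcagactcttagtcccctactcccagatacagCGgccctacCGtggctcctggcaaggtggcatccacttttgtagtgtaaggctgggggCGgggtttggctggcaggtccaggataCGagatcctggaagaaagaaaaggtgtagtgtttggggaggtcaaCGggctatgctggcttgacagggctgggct
This window holds 8 CpG dinucleotides and neither the cAMP response element nor its core. Of the 57 members, 48 matched a promoter in the table. TGACGTCA was found in 1 of the 48 (PDE7B), 2.08%, against 1.85% of all promoters, and TGACG on either strand, a stretch that TGACGTCA contains, in 9 (18.8%, against 24.6%). The motif GTAAACA on either strand, bound by FOXO factors, was in 1 of the 48, ADCY3, and in 3.42% of all promoters. The table gives 1 start per gene, which need not be the start used in these cells.

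Other genes of the pathway were taken from lists of receptors, G proteins, anchors, inhibitors, channels and CREB partners and targets. These lists too were chosen with earlier results of these data known. Of their 95 genes, 68 were measurable, and 19 of these passed 1.5-fold upward, 13 downward and 36 in neither direction. The 32 that passed are 47.1% of the 68, beside 30.9% of all measurable genes. In each direction the shares of all measurable genes were 15.9% higher and 15% lower, against which the count of each list is read.

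Upstream of the cyclases, 3 of the 7 alpha subunits of G proteins were lower in Akt1/2 DKO, 1 was higher and 3 were within 1.5-fold. GNAI2, which inhibits adenylyl cyclase, had 5741 reads in control and 2637 in Akt1/2 DKO, 2.41-fold lower (95% interval 2.30 to 2.53), and it too lies on chromosome 3. GNAS, which stimulates it, had 7670 and 4464 reads, 1.90-fold lower (1.84 to 1.98). Among 12 Gs-coupled receptors PTGER4, a prostaglandin E2 receptor, had 73 and 275 reads, 3.40-fold higher (2.62 to 4.46). Of the 6 measurable ones 1 was higher and 2 lower. Of the 7 measurable Gi-coupled receptors 2 were higher and 2 lower. The somatostatin receptor SSTR1 had 213 and 15 reads, 15.7-fold lower (9.33 to 28.6), and the other 3, named after their values were seen, were the adrenergic receptor ADRA2A with 96 and 0, the somatostatin receptor SSTR5 with 1 and 25 and the chemokine receptor CXCR4 with 4 and 19. NOS3, which makes the nitric oxide that soluble guanylyl cyclase senses, had 1150 and 1671 reads, 1.31-fold higher (1.22 to 1.41), and NOS1 and NOS2 had 0 and 1 read each.

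The pumps that export cyclic nucleotides went opposite ways. ABCC4 (MRP4) had 99 and 240 reads, 2.19-fold higher (1.72 to 2.79), and ABCC5 (MRP5) had 1321 and 454, 3.23-fold lower (2.90 to 3.60), and ABCC5 lies on chromosome 3 as well. Of the 10 measurable anchoring proteins (AKAPs), 2 were higher and 8 within 1.5-fold, near the share of higher genes over all (15.9%). AKAP12, which tethers protein kinase A at the plasma membrane, had 121 and 1078 reads, 8.04-fold higher (6.65 to 9.78), and AKAP6 had 52 and 124.

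All 7 measurable CREB partners, among them the coactivators CRTC1, CRTC2, CRTC3, CREBBP and EP300, were within 1.5-fold. Each had 100 reads or more, and of all genes of that depth only 23.2% passed 1.5-fold, so the count is not read as a trait of the list. Of the 11 measurable genes known as CREB targets, 7 were higher, 1 lower and 3 within 1.5-fold, where 15.9% of all measurable genes were higher and 15% lower. NR4A1, an orphan nuclear receptor, had 59 and 571 reads, 8.73-fold higher (6.67 to 11.6). The phosphatase gene DUSP1 had 53 and 333 reads, 5.67-fold higher (4.23 to 7.72), and ATF3 had 143 and 586, 3.70-fold higher (3.07 to 4.47). Named after their values were seen, NR4A2 had 2 and 69 reads, NR4A3 1 and 26 and SIK1 4 and 31. NR4A2, NR4A3 and SIK1 reached the filter only through their reads in Akt1/2 DKO. The list was also chosen with earlier results of these data known, so 7 of 11 cannot be read as an unbiased share. FOS, with 156 and 117 reads, was within 1.5-fold, and AREG, with 38 and 2, was lower. Many of these genes also respond to serum, stress and other signals, and which signal acted was not tested.

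**Figure D5:**
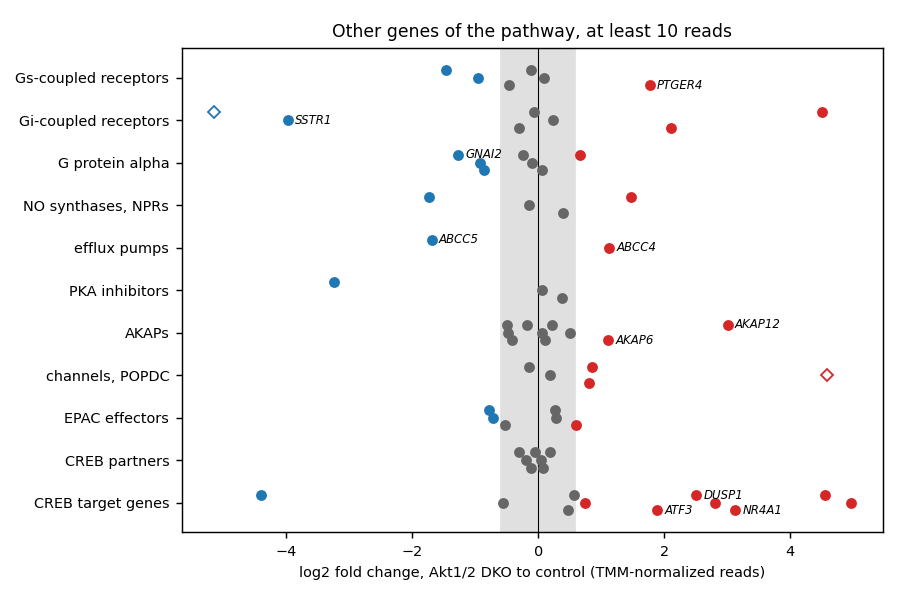
Log2 fold change (Akt1/2 DKO to control) of the pathway measurable genes outside the rule, 1 row per list, without intervals. Red is at least 1.5-fold higher, blue at least 1.5-fold lower, grey within 1.5-fold (grey band) and open diamonds are bounds for genes at 0 in 1 library, and names mark genes whose reads sum to 100 or more and whose fold is 2 or more; the CREB partners lie inside the band and 7 of the 11 CREB target genes lie above it.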

How the data were processed

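RNA from 1 library of control and 1 library of Akt1/2 DKO CWR22rv1 cells was measured. The authors deposited, for each of 19607 genes, an estimated count of reads that is not normalized and an FPKM value, set against transcript length and library size. The submitters' processing notes name fastp 0.20.0, TopHat, Cufflinks, edgeR and GRCh38.p10, without roles. The files of the authors' own comparison hold fold changes, p-values and FDRs, ontology counts and a correlation, and were not used. Counts were rounded. TMM factors came from edgeR 4.0.16 in R 4.3.3 over the 13318 genes whose reads summed over both libraries reached 10. Folds and exact 95% intervals were computed with scipy 1.17.1 in Python 3.11.15. With 1 library per group no test across genes was possible and no p-value is given. A library at 0 was set to 3 reads, which is 0.301 CPM in control and 0.28 in Akt1/2 DKO. A fold was given as the ratio where 1 or 2 reads were counted, although the floor had been planned there. The folds were tested on simulated counts that held counting error only, with known folds placed on well-covered genes. Known folds at few reads or at the floor were not simulated. All members are given, with full values for those with at least 100 reads that differed by at least 1.5-fold. Pathway genes outside the rule are named where they had at least 100 reads and differed by at least 2-fold, and others named beside them were chosen after their values were seen. The members and lists were chosen with earlier results of these data known. Of the identifiers, 19571 were found in GENCODE release 29 (GRCh38). Some prostate markers are not reported here. Alternatives were scaling by total counts, by upper quartiles or by size factors of DESeq2 1.42.0, the deposited FPKM, other read filters, a 2-fold threshold, a prior count of 1 read and leaving out chromosome 3.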

Additional observations from a re-analysis of the deposited data

How the results depend on the processing

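Under total counts, DESeq2 size factors and upper quartile scaling, each count stayed within 1.5 times its value, each role's summed fold within its interval and the median within 0.1. The read filter mattered more. With 50 reads or more summed over both libraries, 11 members were at least 1.5-fold higher, 9 of them clear of counting error (an interval that leaves out no change), and the median log2 fold change was 0.044. With at least 10 reads in each library, 14 members differed by at least 1.5-fold (9 higher), 12 of them clear of counting error (7 higher), and the median was 0.040. The second of these filters removes every member at 0 in control, and the first removes members with few reads whatever their fold. Over all genes, 1533 were at least 1.5-fold higher under the first filter. Under the second, 2971 differed by at least 1.5-fold (1446 higher). The numbers tested under either filter are not given, so these counts have no shares and no excess of members is read from them. A 2-fold threshold left 15 members, 2 of them lower, and 2 lower members clear of counting error. With the deposited FPKM the summed log2 fold change was -0.077 for adenylyl cyclases, -1.187 for soluble guanylyl cyclase subunits, 0.255 for cGMP-specific phosphodiesterases, where reads gave -0.23, -0.527 for PKA type II regulatory subunits and 1.108 for the CREB3 family, and the cause was not tested. Of 156 values of single members under other scalings or FPKM, 150 stayed within their interval, 6 moved, all with FPKM, and 0 of the called ones changed direction. The depth leaves the direction open for members with few reads, such as ADCY5, PDE7B and RAPGEF3. No paired analysis was possible because either group holds 1 library only.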
